A study of Mus musculus with 15 samples.

Results

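Cathepsins are the proteases of the lysosome, and the vacuolar proton pump (V-ATPase) is the enzyme that makes the lysosome acid. Their mRNA was read from sequencing of brain tissue of Kunming mice in a study of ischemia and reperfusion. Genes were chosen by symbol: Cts followed by a single letter, or a name beginning with Atp6v or Atp6ap, with a count above 0 in any of the 15 libraries. 39 symbols matched, and Atp6v1fnb had no count in any library, which left 38 of the 18931 genes in the table. They were 14 cathepsins, of which 10 are cysteine, 2 aspartic and 2 serine proteases, and 24 pump genes, of which 12 encode V1, 9 V0 and 3 accessory proteins.

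The 5 groups of 3 libraries were JU, JA, UA, vehicle and sham. The series title names jasminoidin and ursodeoxycholic acid, and the labels give the treatments only as JU, JA and UA. The labels of every group, sham included, carry the term MCAO, the abbreviation of middle cerebral artery occlusion. The sources used here give no age, sex, dose, route, time after surgery, brain region or hemisphere. They also do not say whether each library is a mouse of its own, so the p-values reflect no more than the scatter of these libraries, part of which may be technical.

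Cathepsins are made as inactive proenzymes, carried to the lysosome largely by mannose 6-phosphate receptors, and activated in its acid lumen. The pump has a cytosolic V1 domain, which hydrolyses ATP, and a membrane V0 domain, which carries the protons. Several subunits are encoded by more than 1 gene, and some of these isoforms are used mainly by osteoclasts, macrophages or kidney cells. In brain, neurons also use the pump to fill synaptic vesicles, while microglia and macrophages are rich in lysosomal proteases. TFEB and its relatives activate many lysosomal genes by binding the letters TCACGTGA, the core of the CLEAR element, and PU.1 is a transcription factor of myeloid cells.

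RefSeq promoter windows (build GRCm38.p6, 250 bases before to 50 bases after the start) were at hand for 27 of the 38 genes. The palindrome TCACGTGA was in 2 of 11 cathepsin windows (18.18%), 3 of 20 pump windows and 0.97% of all 32851 windows of this length. Its shorter core CACGTG, which every TCACGTGA also holds, was in 4 of 11 cathepsin windows (36.36%), 4 of 20 pump windows and 7.15% of all windows. The letters GAGGAAGT, 1 form of the PU.1 site, searched on both strands, were in 2 of 11 cathepsin windows (18.18%), no pump window and 3.2% of all windows. 4 matches that lie wholly before the start are shown with up to 25 bases on each side, in the direction of transcription and with the match in capitals. They are all the matches of TCACGTGA and GAGGAAGT in these windows that lie wholly before the start. Ctsd, Ctsa and Atp6v1a hold the same 8 letters and had fold changes of unlike sign between vehicle and sham brains. In Ctsc the capitals are GAGGAAGT read on the opposite strand.
Ctsd, chr7:142387894-142387951, minus strand: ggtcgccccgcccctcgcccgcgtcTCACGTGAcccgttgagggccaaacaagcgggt
Ctsa, chr2:164833735-164833772, plus strand: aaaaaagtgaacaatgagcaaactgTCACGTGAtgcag
Atp6v1a, chr16:44139359-44139416, minus strand: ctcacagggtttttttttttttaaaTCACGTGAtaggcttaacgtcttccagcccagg
Ctsc, chr7:88277909-88277966, plus strand: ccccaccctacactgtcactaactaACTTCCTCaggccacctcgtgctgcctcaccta

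The other 2 genes with TCACGTGA in the window were Atp6v0d1, where the match spans the start, and Atp6v0e, where it lies just after the start, as does a second match in Ctsa. The log2 fold changes of vehicle over sham of the 5 genes with the motif were 3.85 for Ctsd, 1.96 for Ctsa, 1.14 for Atp6v0e, -0.14 for Atp6v0d1 and -0.37 for Atp6v1a. A match is a description of the letters and not a measured binding site.

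Library totals ran from 18346180 to 20447465 counts, and 3 counts, the floor of detection used here, were worth 0.143 to 0.166 CPM in a library. CPM is a count scaled to the size of its library, here with TMM factors, and levels are compared between genes only as FPKM, which is per transcript length. JU replicate 1 stood apart from the other 14 libraries in the cathepsins, so the tests below are given with and without it. As it was singled out by these same genes, cathepsin results without it are a description and not independent support. Tests used the quasi-likelihood test of edgeR on the counts of all 15 libraries, with Benjamini-Hochberg adjustment over the 15125 genes tested, a threshold of 0.05 and standard errors (SE) on the log2 scale. Counts of genes with an unadjusted p below 0.05 are given below without the same share over all genes. They therefore do not show whether the genes stand apart from other genes. 33 of the 38 genes passed the filter on low counts. Atp6v0a4, Atp6v1b1, Atp6v1e2, Ctsg and Ctsw did not pass, and Ctse and Atp6v0d2 passed only through the groups in which they are high. Ctse and Atp6v0d2 are therefore given by their levels alone and, with Ctsw, are left out of the counts of genes and medians below, which leaves 11 cathepsins and 20 pump genes, and 21 pump genes in the fit without JU replicate 1, where Atp6v0a4 was tested as well.

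**Figure D1:**
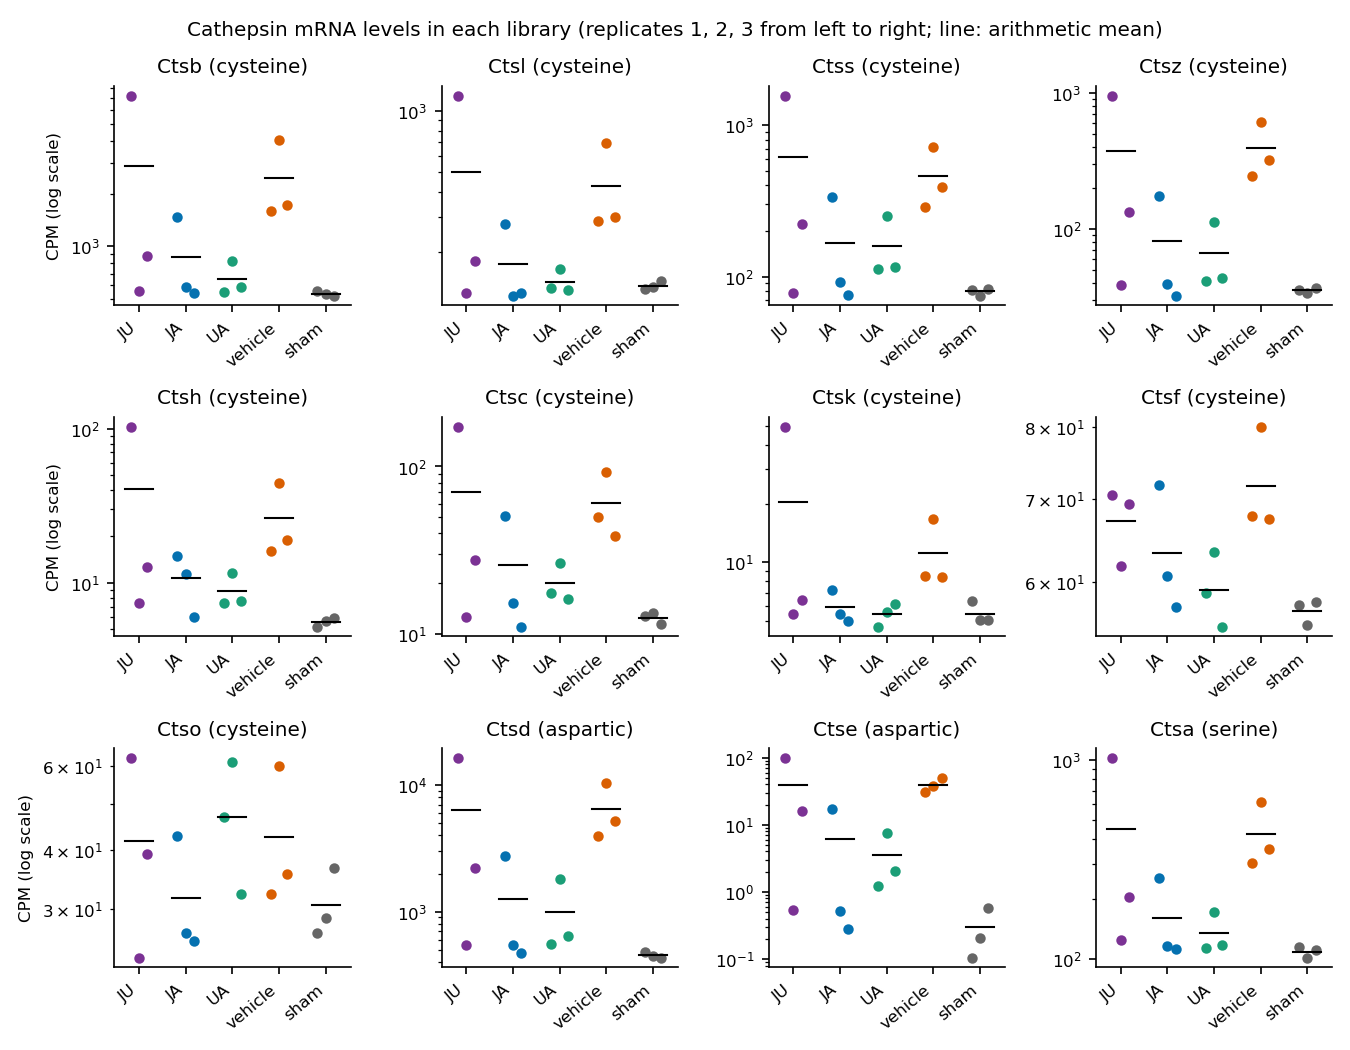
CPM of Ctse and of the 11 other tested cathepsins (log scale) in the JU, JA, UA, vehicle and sham libraries, 1 point for each library and a line at the arithmetic mean of 3. JU replicate 1 is the highest library in each panel except that of Ctsf, and the vehicle libraries lie above the sham libraries in each panel except that of Ctso.

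Cathepsins as a group were higher in vehicle than in sham brains. Their summed level was 6907, 17380 and 8537 CPM in the vehicle libraries, against 1509, 1430 and 1451 CPM in the sham libraries. All 11 cathepsins had a positive log2 fold change, with a median of 2.18, beside 0.00478 over all genes tested. In 10 of the 11 every vehicle library lay above every sham library, beside 24.5% of all genes, and Ctso alone overlapped. None of the 11 passed the threshold when all 15 libraries shared the estimate of the spread, where 0.787% of all genes were called higher. 9 of the 11 had an unadjusted p below 0.05 in that fit, and DESeq2 called 8 of them higher, where it called 7.15% of all genes higher. With JU replicate 1 left out of the fit, 10 of the 11 rose in vehicle brains, where 17% of all genes were called higher.

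Of the cysteine cathepsins, Ctsb had the highest mean FPKM. Its enzyme cuts within proteins and also trims their carboxyl ends. Ctsb measured 7204, 555 and 886 CPM in JU brains, 1473, 588 and 542 CPM in JA brains, 551, 823 and 585 CPM in UA brains, 1587, 4050 and 1714 CPM in vehicle brains and 558, 534 and 525 CPM in sham brains (replicates 1, 2 and 3 in each group). All 3 vehicle libraries were above all sham libraries, while JU replicate 2, JA replicates 2 and 3 and UA replicates 1 and 3 were 1.01 to 1.09 times the sham mean. The log2 fold change of vehicle over sham was 2.18 ± 0.80 (SE; adjusted p = 0.108 with all libraries, 0.00609 without JU replicate 1).

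Ctss, which stays active near neutral pH and helps to process the invariant chain of MHC class II, measured 286, 714 and 393 CPM in vehicle brains, against 81.5, 75.0 and 83.2 CPM in sham brains. It had a log2 fold change of 2.54 ± 0.92 (adjusted p = 0.105, and 0.0159 without JU replicate 1). Ctsz, a carboxypeptidase, measured 245, 610 and 324 CPM in vehicle brains and 35.8, 34.0 and 37.0 CPM in sham brains, a log2 fold change of 3.46 ± 1.03 (adjusted p = 0.0675, and 0.00863 without JU replicate 1). Ctsz thus had the largest fold change among the 9 tested cysteine cathepsins. Ctsl, an endopeptidase, and Ctsh, an aminopeptidase, had log2 fold changes of 1.65 ± 0.70 and 2.23 ± 0.80. Ctsc, the dipeptidyl peptidase that activates serine proteases of immune cell granules, had one of 2.28 ± 0.83. Adjusted p-values of Ctsl, Ctsh and Ctsc were 0.146, 0.105 and 0.107 with all libraries, and 0.0101, 0.00382 and 0.0137 without JU replicate 1.

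Ctsk, best known as the collagen-degrading protease of osteoclasts, was low and measured 8.55, 16.6 and 8.41 CPM in vehicle brains, against 6.32, 5.05 and 5.06 CPM in sham brains. The neighbouring gene Ctss lies on the same chromosome (Ctsk at chr3:95499256-95509362, Ctss at chr3:95526786-95556403, GRCm38), and its log2 fold change of 2.54 compares with 1.03 ± 0.66 for Ctsk (adjusted p = 0.308, and 0.00946 without JU replicate 1). Ctsf moved little, at 67.9, 80.0 and 67.4 CPM in vehicle brains and 57.5, 55.4 and 57.8 CPM in sham brains, but with a narrow spread. Ctsf had a log2 fold change of 0.33 ± 0.10 (adjusted p = 0.0667, and 0.0194 without JU replicate 1). Ctso measured 32.2, 59.9 and 35.6 CPM in vehicle brains and 26.7, 28.7 and 36.5 CPM in sham brains, and these groups overlapped. Ctsw, a protease of natural killer and cytotoxic T cells, had 44 counts over the 3 vehicle libraries, against 16 over the 3 sham libraries.

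Ctsd, the main aspartic protease of the lysosome (chr7:142375911-142388038), had the highest mean FPKM of all 38 genes. Ctsd measured 16410, 549 and 2210 CPM in JU brains, 2745, 548 and 471 CPM in JA brains, 560, 1799 and 641 CPM in UA brains, 3994, 10360 and 5232 CPM in vehicle brains and 480, 442 and 434 CPM in sham brains. The vehicle libraries were 8.84, 22.9 and 11.6 times the sham mean, and JU replicate 1 was 36.3 times the sham mean. Its log2 fold change of vehicle over sham was 3.85 ± 1.11 (adjusted p = 0.0627, and 0.00875 without JU replicate 1). Of the exon bases of Ctsd, 34.4% are shared with the gene model Gm49369 on the same strand, so its reads could have been divided in counting.

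Ctse, an aspartic protease found in endosomes of immune cells, measured 98.9, 0.546 and 16.1 CPM in JU brains, 17.4, 0.514 and 0.276 CPM in JA brains, 1.22, 7.46 and 2.05 CPM in UA brains, 30.3, 37.8 and 49.2 CPM in vehicle brains and 0.105, 0.208 and 0.574 CPM in sham brains, where it was close to the floor. Vehicle replicate 3 was the highest vehicle library for Ctse, whereas vehicle replicate 2 was the highest for the other 11 tested cathepsins.

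Ctsa, a serine carboxypeptidase that protects neuraminidase and beta-galactosidase in the lysosome, measured 302, 615 and 358 CPM in vehicle brains, against 115, 102 and 110 CPM in sham brains. Ctsa had a log2 fold change of 1.96 ± 0.64 (adjusted p = 0.0859, and 0.00416 without JU replicate 1). Ctsg, a serine protease of neutrophil granules, had 4 counts in all 15 libraries together. The neutrophil granule genes Mpo and Elane did not exceed 0.208 and 0.245 CPM in any library. The summed level of all 12 neutrophil markers, which include receptors that other cells also make, was 77.8, 7.43 and 36.8 CPM in JU, 29.9, 11.6 and 8.95 CPM in JA, 9.79, 29.5 and 17.2 CPM in UA, 24.5, 56.8 and 48.5 CPM in vehicle and 5.0, 10.3 and 11.2 CPM in sham brains. All vehicle libraries were above all sham libraries in that sum, and its part in the cathepsin levels was not tested.

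The make-up of the cathepsin pool separated the vehicle from the sham libraries without overlap, and was not tested. Ctsd made up 61.1% ± 1.5 of the summed cathepsin FPKM in vehicle brains and 33.6% ± 0.9 in sham brains (SD, n = 3 each). Ctsb made up 22% ± 1.85 in vehicle brains and 38.9% ± 0.551 in sham brains. Ctsd was thus the leading cathepsin by FPKM in every vehicle library, and Ctsb in every sham library. The Ctsd share was 58.0%, 37.5% and 57.0% in JU brains, 52.1%, 36.2% and 34.9% in JA brains and 36.6%, 53.2% and 39.1% in UA brains. JU replicate 3, with a summed level of 4010 CPM, had a Ctsd share near that of JU replicate 1, with 28880 CPM.

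**Figure D2:**
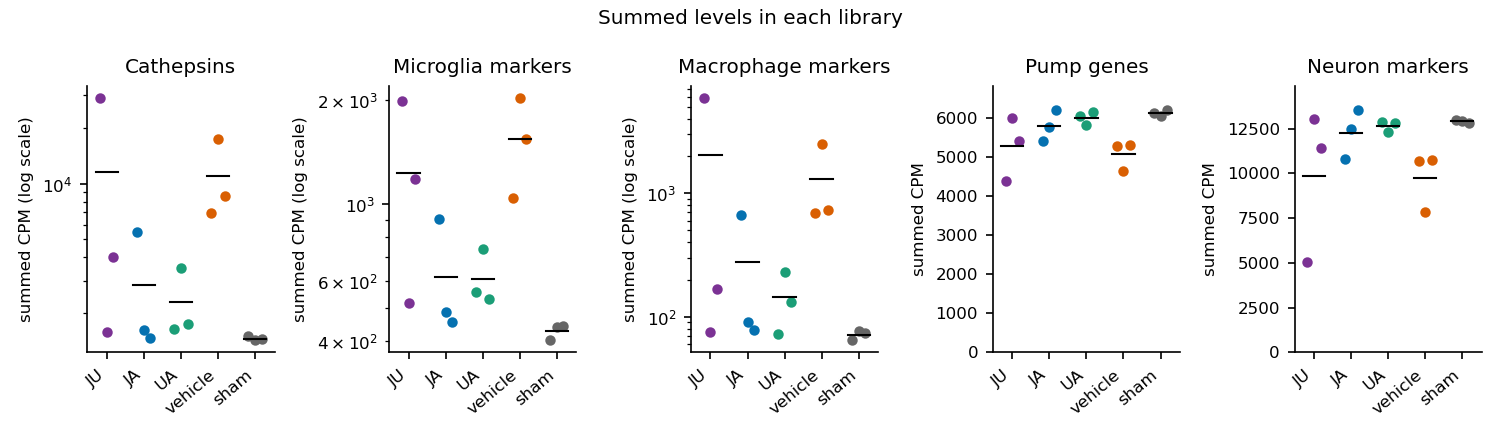
Summed CPM in each library of cathepsins, microglia markers and macrophage markers (log scales) and of pump genes and neuron markers (linear scales from 0), with a line at the arithmetic mean of 3. Vehicle replicate 2 and JU replicate 1 are high in cathepsins and both sets of myeloid markers and low in pump genes and neuron markers.

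Markers of microglia and macrophages moved with the cathepsins. The summed level of 11 microglia markers was 515 to 1985 CPM in JU, 456 to 906 CPM in JA, 530 to 738 CPM in UA, 1043 to 2025 CPM in vehicle and 403 to 442 CPM in sham brains. 6 of the 11 rose in vehicle against sham brains, where 0.787% of all genes were called higher, and all 11 rose without JU replicate 1, where 17% were. With a correction for GC content, described below, none of the 11 passed with all libraries in the fit and each had an unadjusted p below 0.05. The summed level of 12 macrophage and monocyte markers was 75.6 to 5869 CPM in JU, 77.9 to 669 CPM in JA, 72.7 to 230 CPM in UA, 692 to 2506 CPM in vehicle and 64.5 to 76.5 CPM in sham brains. None of these 12 passed in vehicle against sham brains, where 5 had an unadjusted p below 0.05, and 8 rose without JU replicate 1, beside the same 17%. No gene of either list was at 0 in any library. Within JU, JA, UA and vehicle, the library with the highest cathepsin sum also had the highest macrophage and microglia sums. Summed markers of astrocytes (10 genes) were 5522 to 9372 CPM in JU, 5049 to 6176 CPM in JA, 5255 to 6209 CPM in UA, 5311 to 7434 CPM in vehicle and 4926 to 5124 CPM in sham brains. Those of ependymal cells (10 genes) were 32.5 to 99.5, 27.1 to 36.0, 29.2 to 42.5, 50.2 to 87.8 and 30.2 to 35.1 CPM in JU, JA, UA, vehicle and sham brains. Both sums were thus higher in every vehicle than in every sham library, and those of endothelial cells, oligodendrocytes and choroid plexus overlapped. The part of any of these cells in the cathepsin levels was not tested, and in bulk tissue fewer cells of a type and less RNA per cell cannot be told apart.

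Neuron markers went the other way. The summed level of 14 neuron markers was 5056, 13010 and 11410 CPM in JU, 10780 to 13520 CPM in JA, 12310 to 12890 CPM in UA, 7847 to 10770 CPM in vehicle and 12820 to 12990 CPM in sham brains. None of the 14 passed in vehicle against sham brains, none had an unadjusted p below 0.05, and 8 fell without JU replicate 1, where 16.9% of all genes were called lower. The part of neuron content in the pump levels below was not tested.

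Pump genes as a group differed far less than the cathepsins, and mostly in the other direction. Their summed level was 5281, 4634 and 5294 CPM in vehicle brains, against 6122, 6032 and 6192 CPM in sham brains. The median log2 fold change of the 20 pump genes was -0.178, and 16 of them were negative. In 11 every vehicle library lay below every sham library, beside 24.7% of all genes, and in Atp6v0a2 and Atp6v0e every vehicle library lay above, beside 24.5%. 4 genes passed the threshold, all lower in vehicle brains, where 4.24% of all genes were called lower: Atp6ap2, Atp6v1h, Atp6v1a and Atp6v1c1. DESeq2 called 5 pump genes lower and Atp6v0e higher, where it called 9.3% of all genes lower and 7.15% higher. Of the 4 genes lower by edgeR, Atp6ap2 and Atp6v1h passed without vehicle replicate 1, vehicle replicate 3 or sham replicate 1, Atp6ap2 alone passed without sham replicate 2, and none passed without vehicle replicate 2 or sham replicate 3. The share of all genes called in these fits is not given here. In the fit without JU replicate 1, 7 of 21 fell, where 16.9% of all genes were called lower, and Atp6v0a2 and Atp6v0e rose, where 17% were called higher.

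**Figure D3:**
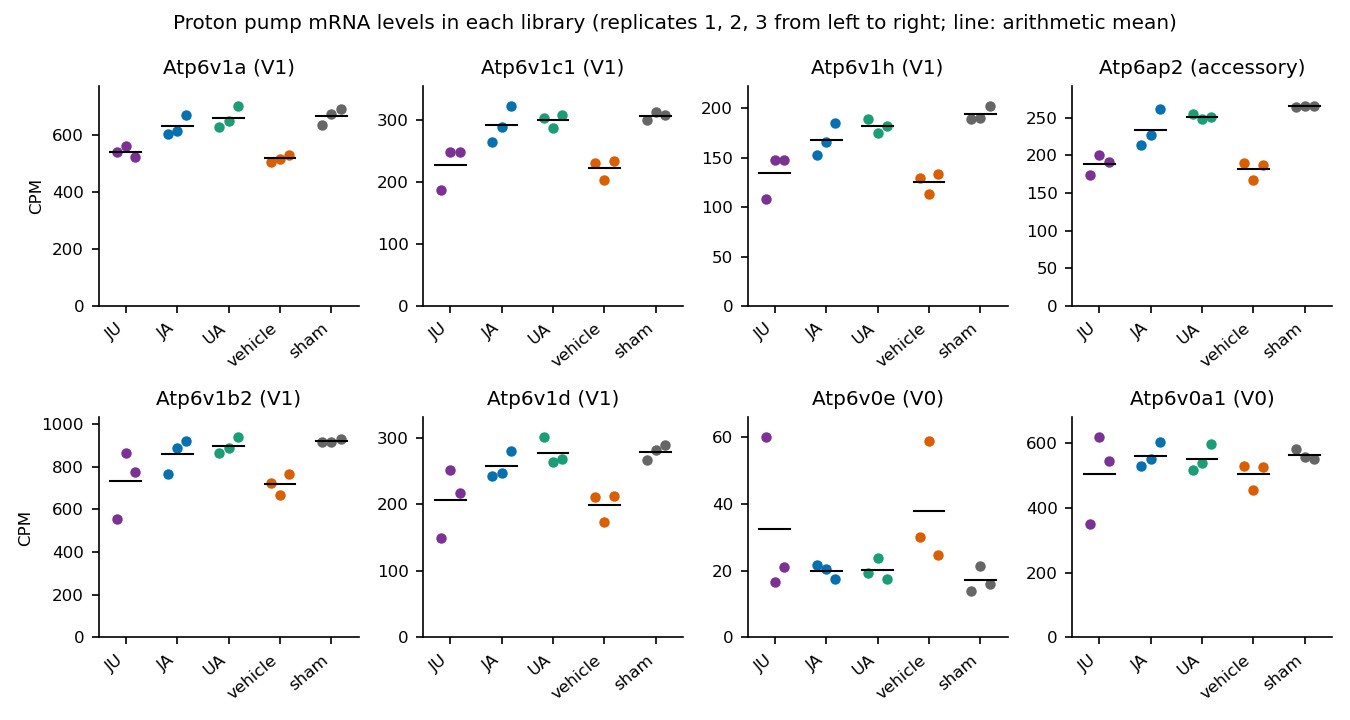
CPM (linear scale from 0) of 8 pump genes in the JU, JA, UA, vehicle and sham libraries, 1 point for each library and a line at the arithmetic mean of 3. Atp6v1a, Atp6v1h and Atp6ap2 are low in all 3 JU and all 3 vehicle libraries, while Atp6v0e is high in JU replicate 1 and in the vehicle libraries.

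Atp6v1a (chr16:44085402-44139705) encodes the catalytic A subunit of V1. Its level was 539, 562 and 523 CPM in JU, 604, 613 and 671 CPM in JA, 628, 648 and 701 CPM in UA, 506, 515 and 529 CPM in vehicle and 634, 673 and 691 CPM in sham brains. Each JU and vehicle library was below each JA, UA and sham library. The log2 fold change of vehicle over sham was -0.37 ± 0.09 (adjusted p = 0.0321, and 0.00321 without JU replicate 1).

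Atp6v1h (chr1:5070018-5162529) encodes the H subunit, which couples ATP hydrolysis to proton flow. It measured 108, 148 and 147 CPM in JU, 153, 166 and 185 CPM in JA, 189, 174 and 182 CPM in UA, 130, 113 and 134 CPM in vehicle and 189, 190 and 202 CPM in sham brains. All vehicle libraries were below all sham libraries, with a log2 fold change of -0.63 ± 0.12 (adjusted p = 0.0163, and 0.000913 without JU replicate 1). Atp6v1c1 (chr15:38661933-38692446) encodes the common form of the C subunit, which helps V1 to assemble on V0. It measured 187, 248 and 248 CPM in JU, 264, 288 and 322 CPM in JA, 303, 287 and 308 CPM in UA, 231, 204 and 233 CPM in vehicle and 299, 313 and 308 CPM in sham brains. The log2 fold change of vehicle over sham was -0.46 ± 0.12 (adjusted p = 0.0405, and 0.00199 without JU replicate 1).

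Other V1 genes leaned the same way without passing when all libraries were in the fit. Atp6v1d, of the central rotor, had a log2 fold change of -0.48 ± 0.16 (adjusted p = 0.0845, and 0.00354 without JU replicate 1). Atp6v1b2, which pairs with the A subunit, had one of -0.36 ± 0.14 (adjusted p = 0.130, and 0.00662 without JU replicate 1). Atp6v1e1, of the outer stalk, had the highest mean FPKM of the pump genes and a log2 fold change of -0.36 ± 0.15 (adjusted p = 0.149, and 0.0102 without JU replicate 1). Atp6v1g2, the brain form of the G subunit, measured 521, 252 and 496 CPM in vehicle brains, against 563, 589 and 586 CPM in sham brains, so that vehicle replicate 2 carried most of its difference. Atp6v1f, with 115, 122 and 112 CPM in vehicle brains and 111, 112 and 117 CPM in sham brains, overlapped between these groups.

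Among accessory proteins, Atp6ap2 (chrX:12587801-12617049) encodes the prorenin receptor, which is needed for assembly of the pump. It measured 174, 201 and 191 CPM in JU, 214, 228 and 262 CPM in JA, 255, 249 and 251 CPM in UA, 189, 168 and 188 CPM in vehicle and 265, 266 and 266 CPM in sham brains. The 6 JU and vehicle libraries were all below the other 9. The log2 fold change of vehicle over sham was -0.55 ± 0.09 (adjusted p = 0.0100, and 0.00106 without JU replicate 1), the smallest adjusted p of the 33 tested genes. Atp6ap1, its partner and the accessory gene with the highest mean FPKM, measured 427, 422 and 421 CPM in vehicle brains and 454, 455 and 458 CPM in sham brains, with no overlap and a log2 fold change of -0.10 ± 0.07 (adjusted p = 0.354).

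The libraries in which these 4 pump genes were low were not in every case those in which cathepsins were high. JU replicate 2 had cathepsins at 1584 CPM in sum, near the sham libraries, and yet Atp6ap2 at 201 CPM and Atp6v1a at 562 CPM, below all sham libraries. JA replicate 1 had cathepsins at 5463 CPM in sum, and Atp6v1a at 604 CPM and Atp6v1c1 at 264 CPM, above all vehicle libraries. It was nevertheless the lowest JA library in each of these 4 pump genes, and below all sham libraries in each. The GC content of the transcripts of these 4 pump genes was 40.5% for Atp6ap2, 37.6% for Atp6v1h, 44.6% for Atp6v1a and 44.4% for Atp6v1c1, beside a median of 49.9% for the genes tested. Atp6v1d, at 42.5%, Atp6v1b2, at 50.4%, and Atp6v1e1, at 50.3%, also had negative log2 fold changes of vehicle over sham. Atp6v0e, at 44.8%, Ctsl, at 44.3%, Ctso, at 41.8%, and Ctsc, at 41.1%, had positive ones. Ctsl, Ctso and Ctsc are cathepsins, which were higher in vehicle brains as a group. The part of GC content in these levels was not tested, and values after a correction for it are given below.

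Genes in the lowest decile of GC content had a median deviation in log2 CPM from their mean over all libraries of -0.104, -0.137 and -0.19 in JU, 0.0933, 0.0323 and 0.149 in JA, 0.156, 0.122 and 0.0914 in UA, -0.175, -0.17 and -0.157 in vehicle and 0.0751, 0.152 and 0.165 in sham libraries. This decile ends at a GC content of 41.4%, so Atp6ap2 and Atp6v1h lie within it and Atp6v1a and Atp6v1c1 do not. The 6 libraries with a negative value are those in which Atp6ap2 and Atp6v1a were low. With a correction for GC content the log2 fold changes of vehicle over sham were -0.27 for Atp6ap2, -0.29 for Atp6v1h, -0.21 for Atp6v1a and -0.30 for Atp6v1c1. None of the 4 then passed in the edgeR fit of all libraries, where 0.0% of all genes were called higher and 0.00661% lower, and each had an unadjusted p below 0.05. Adjusted p-values were 0.211, 0.239, 0.232 and 0.231 in the same order. With the same correction and without JU replicate 1 they were 0.0199, 0.0200, 0.0424 and 0.0191, where 14.6% of all genes were called higher and 10.3% lower.

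**Figure D4:**
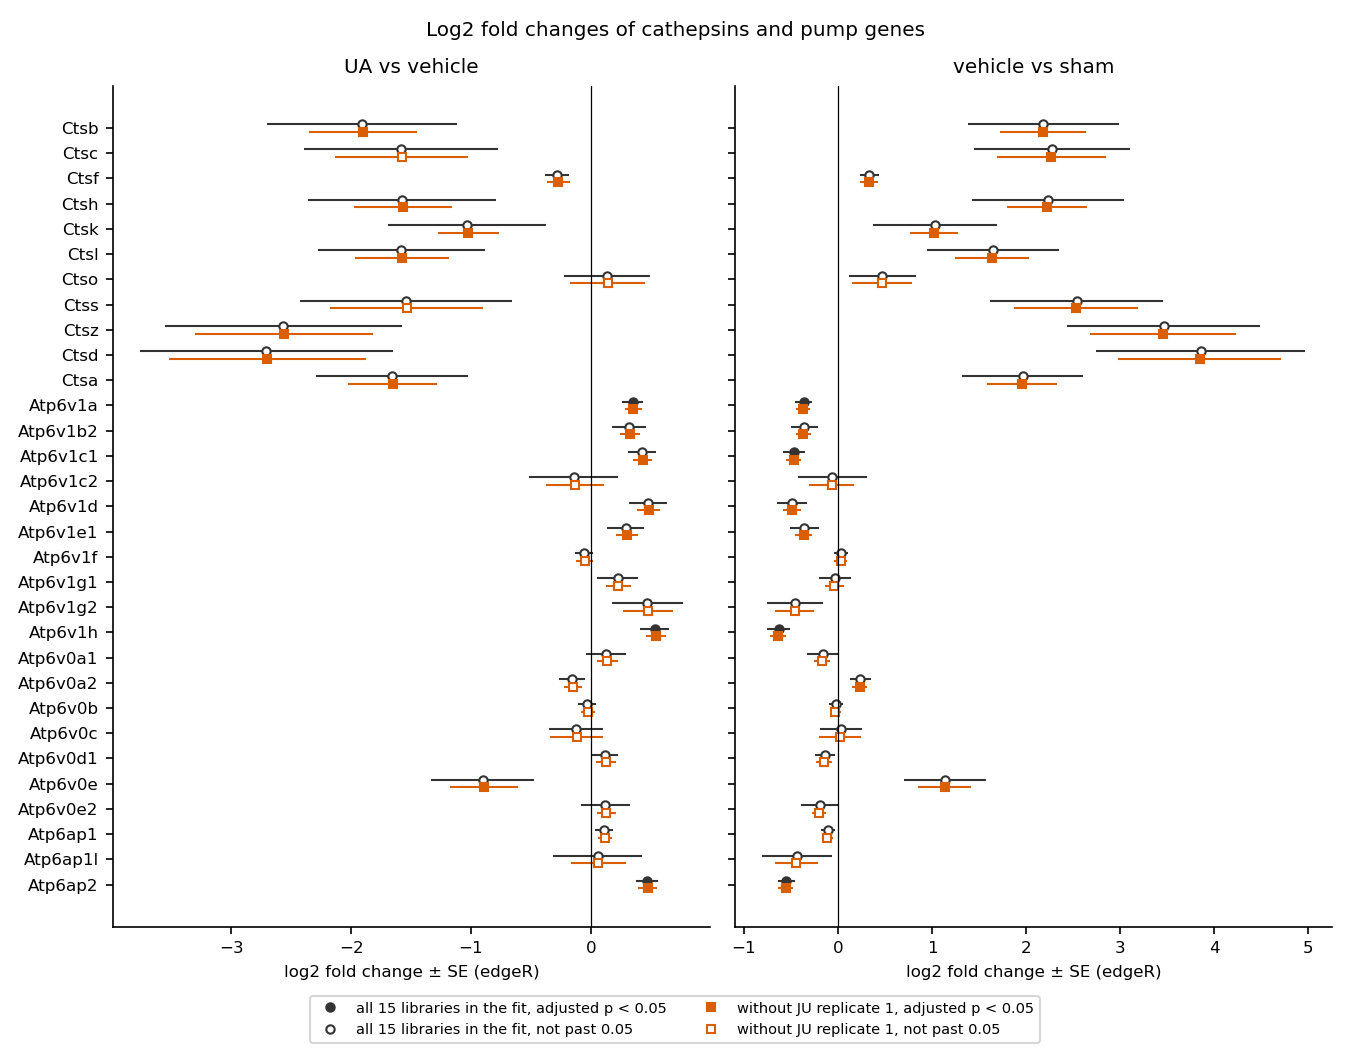
Log2 fold changes with SE for UA over vehicle (left) and vehicle over sham (right) of 31 tested genes, with all 15 libraries in the fit (circles) and without JU replicate 1 (squares), filled where the adjusted p is below 0.05. Ctse and Atp6v0d2, which passed the filter on low counts only through the groups in which they are high, are not drawn. The SE of the cathepsins is narrower without JU replicate 1 while the fold changes stay in place.

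V0 genes split by isoform. Atp6v0a1, the main a subunit of neurons, measured 530, 455 and 526 CPM in vehicle brains and 582, 556 and 552 CPM in sham brains, a log2 fold change of -0.16 ± 0.17 (adjusted p = 0.531). Atp6v0a2 measured 96.7, 98.6 and 106 CPM in vehicle brains and 87.4, 82.3 and 85.6 CPM in sham brains, a log2 fold change of 0.24 ± 0.11 (adjusted p = 0.164, and 0.0364 without JU replicate 1). Tcirg1, which encodes the a3 subunit of osteoclasts and macrophages and has a symbol outside the rule, measured 26.1, 69.3 and 26 CPM in vehicle brains and 9.0, 9.69 and 6.83 CPM in sham brains. Tcirg1 had a log2 fold change of 2.25 ± 0.83 (adjusted p = 0.109, and 0.0107 without JU replicate 1). Tcirg1 made up 26.5%, 1.79% and 3.77% of the FPKM of the a subunit genes in JU, 5.45%, 14.8% and 5.40% in vehicle and 1.83%, 2.06% and 1.47% in sham libraries.

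Atp6v0d2, the d subunit of osteoclasts and macrophages, had 1371 counts over the 3 JU libraries, 132 over JA, 36 over UA, 710 over vehicle and 1 over sham. By library these were 70.3, 0.109 and 0.148 CPM in JU, 6.50, 0.0514 and 0.111 CPM in JA, 0.111, 1.04 and 0.666 CPM in UA and 5.12, 26.6 and 3.25 CPM in vehicle brains, and the 1 sham count was below the floor. No ratio of vehicle to sham is given, as it would rest on that 1 count, and vehicle replicate 2 was well above the other vehicle libraries. Atp6v0d2 reached 10.8% of the d subunit FPKM in JU replicate 1 and 4.24% in vehicle replicate 2, and the remainder came from Atp6v0d1, the common form.

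Atp6v0e measured 60.0, 16.7 and 21.2 CPM in JU, 30.2, 59.0 and 24.7 CPM in vehicle and 14.1, 21.4 and 16.2 CPM in sham brains. Its log2 fold change of vehicle over sham was 1.14 ± 0.43 (adjusted p = 0.117, and 0.0116 without JU replicate 1). The second e gene, Atp6v0e2, had the highest mean FPKM of the V0 genes, and its log2 fold change was -0.19 ± 0.20 (adjusted p = 0.542). Atp6v0e therefore held 37.7% of the e subunit FPKM in JU replicate 1, 14.2%, 27.5% and 12.3% in vehicle libraries and 6.33%, 10.6% and 7.49% in sham libraries. Atp6v1g1 likewise held 49.4% of the G subunit FPKM in JU replicate 1, 23.7%, 41.4% and 24.6% in vehicle libraries and 22.1%, 21.5% and 24.8% in sham libraries, where Atp6v1g2 held the remainder. For Atp6v1g1 the vehicle and sham shares overlapped. Atp6v0c, the proton-carrying c subunit, ranged from 124 to 279 CPM over the 15 libraries with overlapping groups in vehicle and sham, and has processed copies in the genome that could have shared its reads.

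The remaining pump genes showed little or were scarce. Atp6v0b, a second proton-carrying ring subunit, ranged from 207 to 243 CPM over the 15 libraries, and Atp6v0d1 from 236 to 301 CPM, both extremes of each lying in JU libraries. Atp6ap1l, a gene related to Atp6ap1, measured 5.20 and 8.69 CPM in JU replicate 1 and vehicle replicate 2, the same libraries in which neuron markers were lowest, and 12.3 to 20.3 CPM in the other 13. Atp6v1c2 stayed between 1.44 and 4.92 CPM. Atp6v0a4, the a subunit of kidney, had 30 counts over the JU, 18 over the JA, 17 over the UA, 19 over the vehicle and 27 over the sham libraries. Atp6v1b1, the kidney form of the B subunit, had at most 7 counts in a group, and Atp6v1e2, the testis form of the E subunit, at most 3. Annotated exons of Ctsl overlap an antisense gene over 26.8% of their bases and those of Ctsb another gene over 12.8%, so reads there could belong to either.

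**Figure D5:**
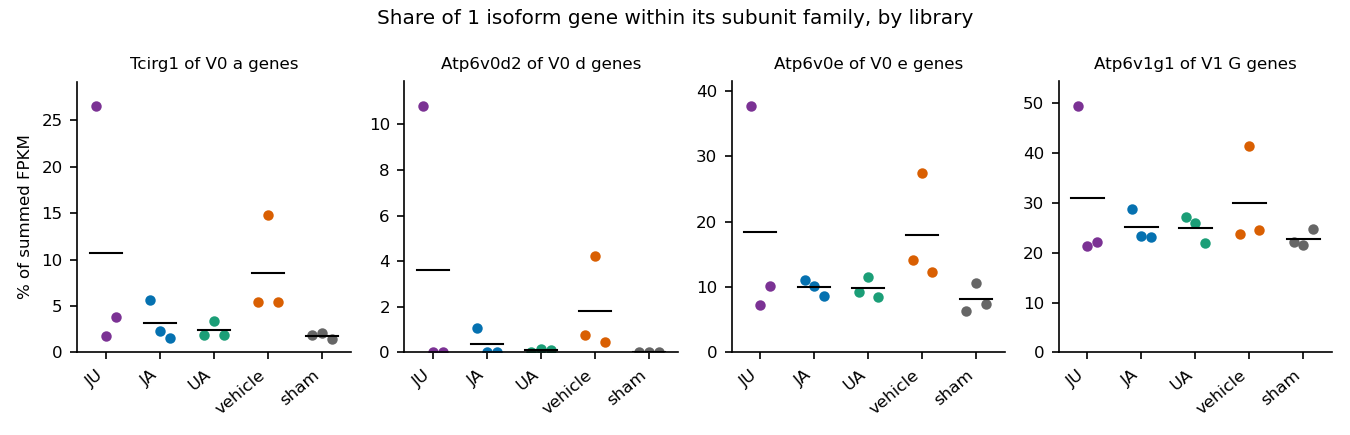
Share (%) of the FPKM of a subunit family held by Tcirg1, Atp6v0d2, Atp6v0e and Atp6v1g1 in each library, with a line at the arithmetic mean of 3. JU replicate 1 has the highest share in all 4 panels, and vehicle replicate 2 the second highest.

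In UA brains against vehicle brains, 3 of the 33 genes passed, all higher in UA, where 3.12% of all genes were called higher and 0.35% lower. They were Atp6ap2, with a log2 fold change of 0.47 ± 0.09 (adjusted p = 0.0217), Atp6v1h, with 0.54 ± 0.12 (adjusted p = 0.0347), and Atp6v1a, with 0.35 ± 0.09 (adjusted p = 0.0456). Atp6v1c1 and Atp6v1d came next, with 0.43 ± 0.12 (adjusted p = 0.0647) and 0.48 ± 0.16 (adjusted p = 0.117), and DESeq2 called both higher as well. In each of the 5 genes all UA libraries were above all vehicle libraries. With the GC correction the log2 fold changes of Atp6ap2, Atp6v1h and Atp6v1a were 0.20, 0.21 and 0.20, and none passed, where 0.0% of all genes were called. With that correction and without JU replicate 1 their adjusted p-values were 0.0730, 0.0802 and 0.0708, where 4.78% of all genes were called higher and 6.91% lower. In that fit Atp6v1c1 (adjusted p = 0.0465), Atp6v1b2 and Atp6v1e1 passed as higher in UA brains. Atp6v0e and the cathepsins Ctsa, Ctsb, Ctsh, Ctsk and Ctsl passed as lower. The count of 3 in the edgeR fit of all libraries without the GC correction fell to 1 without vehicle replicate 3. It fell to 0 without vehicle replicate 1, vehicle replicate 2 or any single UA library. The share of all genes called in these fits is not given here. Vehicle libraries are shared with the comparison against sham, so the 2 comparisons are not independent.

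The 11 cathepsins had a median log2 fold change of UA over vehicle of -1.58, beside -0.0136 over all genes tested. In 10 of the 11 every UA library lay below every vehicle library, beside 22.2% of all genes, and Ctso was again the exception. No cathepsin passed with all libraries in the fit, where 6 had an unadjusted p below 0.05 and DESeq2 called Ctsa alone, where it called 2.85% of all genes lower and 7.44% higher. With JU replicate 1 left out, 8 of the 11 fell, where 13.4% of all genes were called lower. Among these were Ctsk, at -1.02 ± 0.25 (adjusted p = 0.0134), Ctsa, at -1.65 ± 0.37 (adjusted p = 0.0111), and Ctsb, at -1.90 ± 0.45 (adjusted p = 0.0141). Ctsf, with the smallest p of the cathepsins, measured 58.8, 63.4 and 55.2 CPM in UA brains, against 67.9, 80.0 and 67.4 CPM in vehicle brains (log2 fold change -0.28 ± 0.10, adjusted p = 0.136, and 0.0486 without JU replicate 1). In that fit 7 of 21 pump genes rose in UA brains, where 14.8% of all genes were called higher, and Atp6v0e fell.

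JA brains were uneven. No gene of the 33 passed against vehicle, where 1.49% of all genes were called higher and 0.0727% lower. 8 of the 31 had an unadjusted p below 0.05, and DESeq2 called 4 pump genes higher: Atp6ap2, Atp6v1a, Atp6v1c1 and Atp6v1h, where it called 5.25% of all genes higher and 1.24% lower. Their edgeR log2 fold changes were 0.37 ± 0.09, 0.28 ± 0.09, 0.39 ± 0.12 and 0.42 ± 0.12 (adjusted p = 0.0631, 0.121, 0.114 and 0.104). JA replicate 1 had a cathepsin sum of 5463 CPM, while replicates 2 and 3 had 1627 and 1465 CPM, close to sham brains. In 7 of the 11 cathepsins every JA library was below every vehicle library, beside 15.7% of all genes, and Ctsc, Ctsf, Ctso and Ctss overlapped. Ctsz measured 175, 39.7 and 32.5 CPM in JA brains, against 245, 610 and 324 CPM in vehicle brains (log2 fold change -2.25 ± 0.97, adjusted p = 0.244, and 0.0567 without JU replicate 1). Atp6v1d measured 243, 248 and 280 CPM in JA brains, against 212, 174 and 213 CPM in vehicle brains (log2 fold change 0.37 ± 0.16, adjusted p = 0.244, and 0.0224 without JU replicate 1). In the fit without JU replicate 1, 6 pump genes rose and 5 cathepsins and Atp6v0e fell, where 11.3% of all genes were called higher and 7.76% lower. With the GC correction added to that fit none of them passed, where 0.0% of all genes were called higher and 0.00656% lower.

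JU brains did not separate from vehicle brains in any of the 33 genes. The libraries of the groups overlapped in all 33, beside 2.35% of all genes with every JU library higher and 1.88% with every JU library lower. No gene passed with edgeR or DESeq2 and none had an unadjusted p below 0.05, with 0.0% of all genes called by edgeR and 0.0132% called higher by DESeq2. The cathepsin sums spread more widely in JU than in any other group, at 28880, 1584 and 4010 CPM in JU brains, against 6907, 17380 and 8537 CPM in vehicle brains. The log2 fold change of Ctsd was -0.03 ± 0.99 with all libraries and -2.24 ± 0.94 without JU replicate 1 (adjusted p = 1.0 and 0.210). That of Ctsh was 0.63 ± 0.76 with all libraries and -1.38 ± 0.47 without JU replicate 1, so its direction rests on that library. Ctsk turned in the same way, at 0.87 ± 0.65 and -0.90 ± 0.29. All 11 cathepsins were negative without JU replicate 1, 8 of them with an unadjusted p below 0.05 and none with an adjusted one, where 0.0% of all genes were called higher and 0.00656% lower. That library was left out because of its cathepsin levels, so this direction and these p-values are no independent support.

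Among pump genes, Atp6v0c measured 198, 279 and 205 CPM in JU brains, against 203, 124 and 192 CPM in vehicle brains (log2 fold change 0.40 ± 0.22, adjusted p = 1.0, and 0.255 without JU replicate 1). Atp6v1g1 had a log2 fold change of 0.17 ± 0.17 and the cathepsin Ctsf one of -0.09 ± 0.10 (adjusted p = 1.0 for both). Atp6ap2, Atp6v1a, Atp6v1c1 and Atp6v1h had log2 fold changes of JU over vehicle between 0.03 and 0.10, with SE from 0.09 to 0.12. In all 4, JU replicate 2, in which the cathepsin sum was near that of sham, was above every vehicle library and below every sham library.

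JU brains were also set against JA and UA brains. Against JA no gene passed with edgeR, where 0.0% of all genes were called, 11 of the 31 had an unadjusted p below 0.05, and DESeq2 called Atp6ap2 and Atp6v1a lower in JU, where it called 2.87% of all genes lower and 1.31% higher. Every JU library lay below every JA library for Atp6ap2, Atp6v1a, Atp6v1c1 and Atp6v1h, beside 10.6% of all genes, and above for Atp6v0c and Atp6v1f, beside 6.39%. Log2 fold changes of JU over JA were -0.31 ± 0.09 for Atp6ap2, -0.36 ± 0.12 for Atp6v1c1, -0.32 ± 0.12 for Atp6v1h and -0.22 ± 0.09 for Atp6v1a (adjusted p = 0.146, 0.170, 0.209 and 0.216). Ctsk and Ctsh, at 1.79 ± 0.67 and 1.92 ± 0.79 (adjusted p = 0.208 and 0.222), were high in JU replicate 1 and had overlapping groups. Against UA no gene passed with edgeR, where 0.0992% of all genes were called higher and 0.985% lower. Of the 31, 15 had an unadjusted p below 0.05, and Atp6ap2 came nearest, at -0.41 ± 0.09 (adjusted p = 0.0504). Atp6v1h, Atp6v1c1 and Atp6v1a followed, at -0.44 ± 0.12, -0.40 ± 0.12 and -0.28 ± 0.09 (adjusted p = 0.0886, 0.0944 and 0.103). Ctsk and Ctsh had log2 fold changes of JU over UA of 1.90 ± 0.67 and 2.21 ± 0.80 (adjusted p = 0.132 and 0.135).

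Every JU library lay below every UA library for Atp6ap2, Atp6v1a, Atp6v1c1, Atp6v1d and Atp6v1h, beside 13.9% of all genes, and above for Atp6v0c, beside 9.77%. No cathepsin separated JU from JA or UA libraries. DESeq2 called Ctsa, Ctsh and Ctsl higher in JU than in UA brains, and Atp6ap2, Atp6v1a, Atp6v1c1 and Atp6v1h lower, where it called 5.02% of all genes higher and 5.71% lower. Without JU replicate 2, which leaves JU replicates 1 and 3, edgeR called 9 cathepsins higher and 5 pump genes lower in JU than in UA brains, where 11.7% and 8.28% of all genes were called. With JU replicate 1 left out instead it called none of the 35 genes tested, where 0.0197% of all genes were called higher and 0.604% lower, and 7 had an unadjusted p below 0.05.

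Genes that work with cathepsins and the pump were read from 6 lists. Of 42 other lysosomal hydrolases and activators, none passed in vehicle against sham brains, 23 had an unadjusted p below 0.05, and their median log2 fold change was 0.862, while 30 rose and 2 fell without JU replicate 1, where 17% of all genes were called higher and 16.9% lower. Gusb, the beta-glucuronidase, averaged 177 CPM in vehicle brains and 16.1 CPM in sham brains (adjusted p = 0.0759). Man2b1, the lysosomal alpha-mannosidase, averaged 191 CPM in vehicle brains and 29.5 CPM in sham brains (adjusted p = 0.0745), and Arsb, arylsulfatase B, 297 and 160 CPM in the same order (adjusted p = 0.0574). Of 10 cathepsin inhibitors none passed and 4 had an unadjusted p below 0.05. Cst7 is among these 4, but it was at or below the floor in sham brains and is given by its levels alone. Cst7, a cystatin of immune cells, measured 10.6, 41.7 and 59.3 CPM in vehicle brains, against 0.158, 0 and 0.104 CPM in sham brains, and, as with Ctse, vehicle replicate 3 was its highest vehicle library. Of 28 lysosomal membrane proteins, Tpcn1 and Laptm5 rose, by 0.55 ± 0.13 and 2.81 ± 0.70 (adjusted p = 0.0377 and 0.0401), where 0.787% of all genes were called higher.

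Of 12 pump partners outside the symbol rule, Vma21, a factor for assembly of V0, fell in vehicle brains, by 0.53 ± 0.10 on the log2 scale (adjusted p = 0.0135), where 4.24% of all genes were called lower. Vma21 also rose in UA against vehicle brains, by 0.46 ± 0.10 (adjusted p = 0.0274), where 3.12% of all genes were called higher. Of 19 genes that sort enzymes to the lysosome, Vps35, Vps29 and Ap1g1 fell in vehicle brains, by 0.52, 0.40 and 0.32 on the log2 scale (adjusted p = 0.00796, 0.0373 and 0.0153), and Nagpa rose by 1.51 (adjusted p = 0.0475). With the GC correction and all libraries in the fit, no membrane protein, pump partner or sorting gene passed in vehicle against sham or in UA against vehicle brains. Of 18 genes of the TFEB family and its lysosomal mTORC1 regulators none passed, and 11 had an unadjusted p below 0.05. Lamtor1 measured 89.1, 112 and 92.0 CPM in vehicle brains and 69.6, 71.8 and 72.8 CPM in sham brains, while Rragb measured 64.6, 57.1 and 60.5 CPM in vehicle brains and 87.7, 95.2 and 98.7 CPM in sham brains. These adjusted p-values are those of edgeR over all genes tested.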

How the data were processed

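Per the file headers, the deposited table gives each gene a raw whole-number read count and an FPKM value (scaled by length and depth by the authors) in each library. HISAT2, Trimmomatic, DESeq and Cufflinks, with no version, and the build GRCm38 (mm10) stand in the submitters' processing notes. Which program counted reads, whether it used strand and on which gene models is not given in the sources used here, so reads of overlapping genes cannot be told apart. Per the labels' protocols, the kit was TruSeq Stranded mRNA. 1 count column whose name matched the labels of no sample was not used.

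Counts were tested in R 4.3.3 with edgeR 4.0.16 (filterByExpr by group, TMM, robust quasi-likelihood fit, 15 libraries, 10 residual degrees of freedom). DESeq2 1.42.0, limma 3.58.1 with voom, limma on log2(FPKM + 0.1), other scaling, no filter, a GC correction (lowess over transcript GC from GENCODE), a replicate block and leaving out single libraries were alternatives. The code was tested on simulated data. The biological coefficient of variation was 27.1%. Same-numbered libraries of JU and JA had deviations with correlations of 0.701, 0.387 and 0.422. Those of JU and vehicle were -0.528, -0.726 and 0.484, and those of JA and vehicle -0.322, -0.307 and 0.33. These values do not establish a pairing by replicate number. The block changed no call in JU against JA.

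Genes, lists and tests were chosen with earlier results of these data known. Of 247 listed pathway and marker genes, 244 were in the table. In each comparison full statistics are given for genes past the threshold by p, at most 12, and otherwise for the 6 with the smallest p, beside the gene of highest FPKM in each class. Other genes were named for their role or after their values were seen. Every library pair of a group differed by more than sampling noise.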

Additional observations from a re-analysis of the deposited data

How the results depend on the processing

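With all 15 libraries in the fit, the counts of genes past the threshold depended on the settings. The totals here include Ctse, Ctsw and Atp6v0d2 where they were called. Counts without these 3 genes are given for DESeq2 and for only the groups compared. In vehicle against sham the main count was 4. It was 16 with DESeq2, where 7.15% of all genes were called higher and 9.3% lower. With only the groups compared it was 21, where 13.8% of all genes were called higher and 11.7% lower. Without the 3 genes these counts were 9 higher and 5 lower, and 12 higher and 7 lower. The count was 2 with no filter on low counts, 2 with the replicate block, and 0 with the GC correction, alone or with the replicate block. With the GC correction alone 0.0% of all genes were called higher and 0.00661% lower. In UA against vehicle the main count was 3. It was 6 with DESeq2, where 7.44% of all genes were called higher and 2.85% lower. With only the groups compared it was 14, where 7.78% of all genes were called higher and 6.85% lower. Without the 3 genes these counts were 5 higher and 1 lower, and 5 higher and 7 lower. The count was 1 with the replicate block, 1 with limma on log2 FPKM and 0 with the GC correction, alone or with the replicate block. With the GC correction alone 0.0% of all genes were called in either direction. DESeq2 called 4 genes in JA against vehicle, 2 in JU against JA and 7 in JU against UA, and limma on log2 FPKM called 1 in JU against UA, where the main counts were 0. The replicate block changed no other count. No share of all genes is given here for the fits without a filter, with the replicate block or with limma on log2 FPKM. The same holds for fits without any single library other than JU replicate 1 or JU replicate 2. The cause of these differences was not tested.

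Leaving out 1 library at a time gave 0 to 21 genes in vehicle against sham, 0 to 12 in JA against vehicle, 0 to 18 in UA against vehicle, 0 in JU against vehicle and JU against JA, and 0 to 14 in JU against UA. In the first 3 of these the highest count came without JU replicate 1, and in JU against UA without JU replicate 2. Without Ctse, Ctsw and Atp6v0d2 these 4 highest counts were 12 higher and 7 lower, 6 and 6, 7 and 9, and 9 and 5. Of all genes, 17% were called higher and 16.9% lower, 11.3% and 7.76%, 14.8% and 13.4%, and 11.7% and 8.28%, in the same order. Without JU replicate 1 and with the GC correction the counts were 22, 0 and 10 in vehicle against sham, JA against vehicle and UA against vehicle. Without the same 3 genes the first was 10 higher and 10 lower, and the last 3 higher and 6 lower. Of all genes, 14.6% were called higher and 10.3% lower, 0.0% and 0.00656%, and 4.78% and 6.91%, in the order of the 3 comparisons.

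Some log2 fold changes reversed. In JU against vehicle, leaving out 1 library at a time gave -1.38 to 1.22 for Ctsh, -0.90 to 1.29 for Ctsk and -0.0783 to 0.327 for Atp6v1g1, the lowest each time without JU replicate 1. With the GC correction as well these were -1.35, -0.89 and -0.0720, and Ctsh was -0.15 with limma-voom and -0.19 on log2 FPKM. In JU against JA, Ctsh ran from -0.10, without JU replicate 1, to 2.38, and was -0.11 with the GC correction as well. Under both settings together Atp6v1h was 0.10 in JU against JA and 0.0203 in JU against UA. Counts of genes whose groups do not overlap kept within 1.5 times under other size factors or FPKM, settings chosen after the data were seen, except in JU against vehicle, where size factors gave 2 and the main count was 0. At this depth Ctsg, Atp6v1b1 and Atp6v1e2 were too low to compare.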
